A study of Mus musculus with 6 samples.

Results

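The oocyte transcription factors examined here are Figla, Nobox, Sohlh1, Sohlh2, Lhx8 and Taf4b, 6 genes chosen by symbol out of 18193 genes on the array and measured by the 8 probe sets, of 45101, whose platform annotation names exactly 1 of them. Taf4b had 3 probe sets and each of the other 5 genes had 1. They were compared between 3 arrays of ovaries from mouse embryos labelled dmrt1 knockout and 3 arrays of wild-type (WT) ovaries, all at E15.5, in mid-gestation. The series describes the knockout as conditional, and its labels name no Cre line, promoter, strain, litter or pooling of animals. The numbered replicates are not stated to come from separate animals. Each p-value therefore covers no more than the spread among these arrays, and how much of it is technical is unknown.

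These factors build the early oocyte. SOHLH1 and SOHLH2 are related basic helix-loop-helix (bHLH) proteins of germ cells that can bind DNA as a pair and lie upstream of Lhx8, Nobox and Figla. FIGLA is a bHLH protein that pairs with E proteins and activates the zona pellucida genes, NOBOX is a homeobox protein and LHX8 a LIM homeobox protein, both needed as oocytes enter follicles, and TAF4B is a germ cell form of a subunit of TFIID, the complex that recognises core promoters. In the mouse, follicles form around birth, and at E15.5 the germ cells of the ovary are in meiotic prophase.

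bHLH proteins bind E-boxes, so the 250 bases before the start sites of the members are shown with every E-box (CANNTG) in capitals. They are from RefSeq on GRCm38.p6, whose table used here held 5 of the 6 members, all but Taf4b. The Sohlh1 sequence is chr2:25847249-25847498 on the minus strand, that of Sohlh2 is chr3:55181794-55182043 on the plus strand, and that of Figla is chr6:86016941-86017190 on the plus strand. The Nobox sequence is chr6:43309555-43309804 and that of Lhx8 is chr3:154330561-154330810, both on the minus strand. All 5 are printed 5′ to 3′ on the strand of the gene and end at the base before the start site. The Figla and Nobox windows lie inside the genes as annotated, chr6:86016494-86020996 and chr6:43303674-43310072. Their start sites are therefore internal ones, and the bases before the outermost annotated ends of these genes were not searched.
Sohlh1: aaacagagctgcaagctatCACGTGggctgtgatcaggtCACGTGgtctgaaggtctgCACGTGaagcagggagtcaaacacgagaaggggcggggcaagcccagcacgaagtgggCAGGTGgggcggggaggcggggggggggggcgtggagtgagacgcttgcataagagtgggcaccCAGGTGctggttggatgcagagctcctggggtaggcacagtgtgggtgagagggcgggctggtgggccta
Sohlh2: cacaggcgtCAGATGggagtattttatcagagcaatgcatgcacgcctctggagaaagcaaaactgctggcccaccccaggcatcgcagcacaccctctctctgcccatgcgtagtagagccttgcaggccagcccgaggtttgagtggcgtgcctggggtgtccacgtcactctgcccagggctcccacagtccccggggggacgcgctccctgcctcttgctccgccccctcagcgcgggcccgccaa
Figla: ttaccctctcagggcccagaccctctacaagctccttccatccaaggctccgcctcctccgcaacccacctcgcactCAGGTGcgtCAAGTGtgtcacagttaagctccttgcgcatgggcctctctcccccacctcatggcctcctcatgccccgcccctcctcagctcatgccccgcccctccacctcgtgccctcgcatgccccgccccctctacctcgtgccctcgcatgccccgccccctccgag
Nobox: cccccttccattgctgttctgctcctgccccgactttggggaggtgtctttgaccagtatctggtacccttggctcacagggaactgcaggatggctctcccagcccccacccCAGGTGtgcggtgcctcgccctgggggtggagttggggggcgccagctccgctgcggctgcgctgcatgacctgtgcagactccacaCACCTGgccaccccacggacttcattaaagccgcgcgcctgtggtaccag
Lhx8: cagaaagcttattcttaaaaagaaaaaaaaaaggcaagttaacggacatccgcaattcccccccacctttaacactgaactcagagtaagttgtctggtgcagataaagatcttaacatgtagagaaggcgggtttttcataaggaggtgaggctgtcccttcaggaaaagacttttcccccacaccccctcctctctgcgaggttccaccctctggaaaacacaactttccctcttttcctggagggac

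The Sohlh1 window held 5 E-boxes, 3 of them with the letters CACGTG and 2 with CAGGTG. Of 32851 promoter windows of the same length in the table, 66.2% held at least 1 E-box, 1.15% held 5 or more, and 0.0609% (20 windows) held at least 3 copies of CACGTG. Figla and Nobox held 2 E-boxes each and Sohlh2 held 1, with the letters CAGATG. The Lhx8 window held 0, as did 33.8% of windows. CAGGTG, searched on both strands and found in 17.2% of windows, occurred in Sohlh1, Nobox and Figla. TAATTG, the letters bound by NOBOX, and TAATTA, a LIM homeobox core, are in 7.17% and 4.84% of windows on either strand and in 0 of these 5. ACANTGT, the core of the element that DMRT proteins bind, is in 6.47% of windows and had a match in Sohlh1 alone, from base -34 to base -28 before the start site. These letters are a description of the sequence and not evidence of binding.

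**Figure D1:**
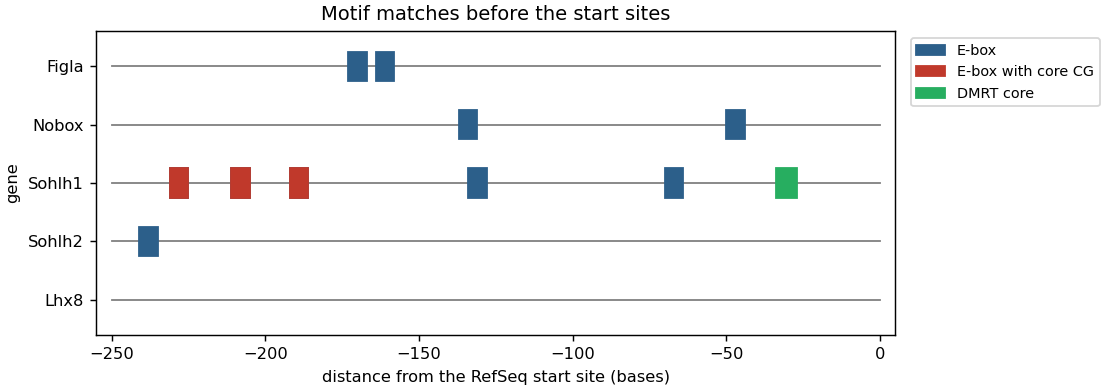
Motif matches in the 250 bases before the RefSeq start sites of 5 members, by distance from the start site in bases (x axis) and gene (y axis). Blue boxes are E-boxes, red boxes are E-boxes with the core CG, and the green box is the DMRT core. Sohlh1 carries 5 E-boxes and the only DMRT core, and Lhx8 carries neither.

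The deposited values are GCRMA intensities, a background-adjusted and normalized brightness per probe set. A probe set was tested when it reached an intensity of 16 (log2 of 4) on at least 3 of the 6 arrays, since GCRMA presses dimmer values towards a floor. The arrays had median intensities of 13.2 to 13.4 in knockout and 14.4 to 14.7 in WT. Dmrt1, the targeted gene, read 5.97 to 8.55 in knockout and 8.47 to 13.0 in WT on its single probe set, all below 16, and where it lies with respect to the deletion is unknown, so it does not check the labels. Xist, the RNA of the inactive X chromosome, read 3.15 to 4 on the 3 probe sets of knockout replicate 1. It read 570 to 1090 on knockout replicates 2 and 3, against 934 to 2718 in WT, so on each probe set all 3 knockout arrays lay below every WT array. Uty, Kdm5d and Eif2s3y, genes of the Y chromosome, read 1.58 to 3.82 in knockout and 1.96 to 3.74 in WT on their 9 probe sets, all below the testing level. Values are also given without knockout replicate 1, and what the Xist levels contribute to the results was not tested.

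Of the 6 oocyte transcription factors, 4 reached the testing level, and 0 of these rose and 0 fell in knockout ovaries in limma at an adjusted p threshold of 0.05. Among all 11897 genes tested through their brightest probe set, 1.28% rose and 2.27% fell by the same rule, and among all 22040 tested probe sets 1.46% rose and 5.15% fell. Sohlh2 showed the largest difference of the 4 and was the only one with an unadjusted p under 0.05, which 17.4% of all tested genes had. Figla, Lhx8 and Taf4b overlapped between the groups. Nobox and Sohlh1 were too dim to be tested. Without knockout replicate 1 the counts were again 0 and 0.

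**Figure D2:**
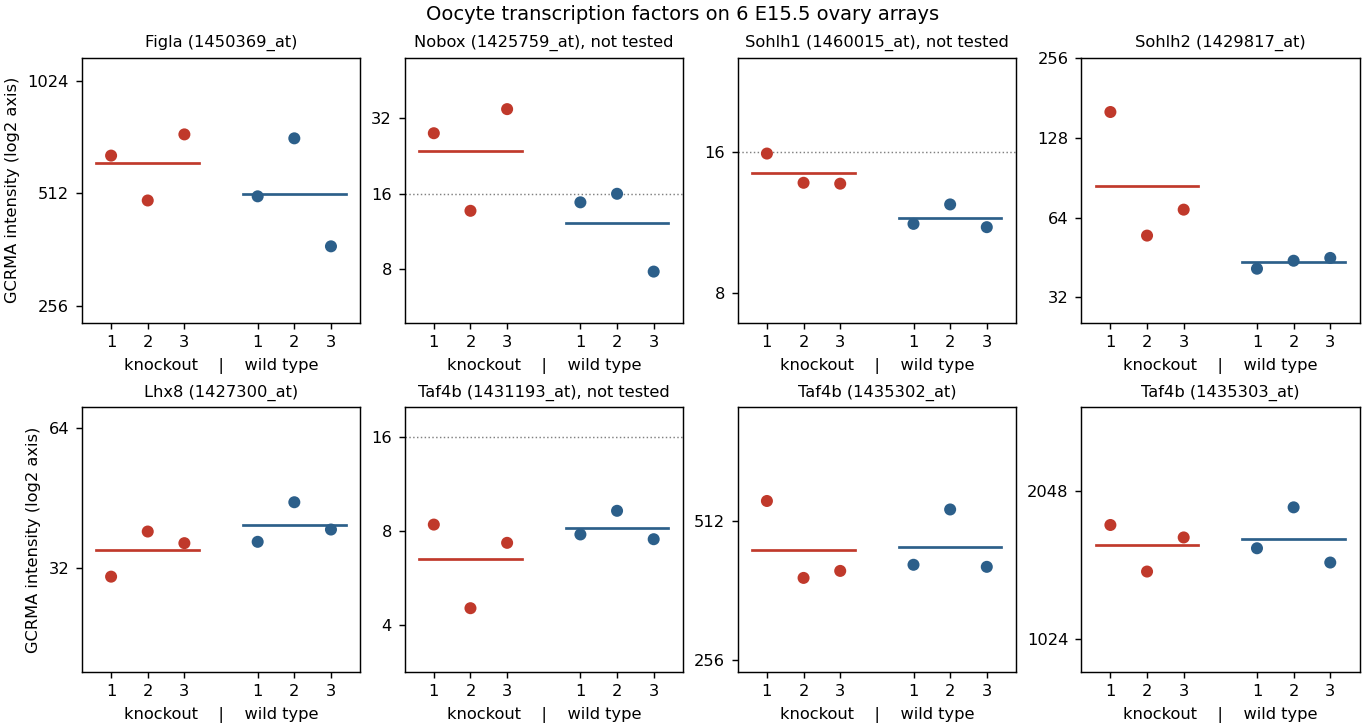
GCRMA intensity (y axis, log2 scale) of each of the 8 member probe sets on knockout replicates 1 to 3 (red) and wild-type replicates 1 to 3 (blue). Lines are geometric means of the 3 arrays and the dotted line is the testing level of 16. Sohlh2 and Sohlh1 lie higher on every knockout array than on any wild-type array, and the groups overlap in the other panels.

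Sohlh2 (probe set 1429817_at) had intensities of 161, 54.7 and 68.5 in knockout replicates 1 to 3, against 41.0, 43.9 and 45.0 in WT replicates 1 to 3. Every knockout array lay above every WT array, as for 12.3% of tested genes, and knockout replicate 1 stood well above the other two. The mean log2 level was 6.40 ± 0.82 in knockout and 5.44 ± 0.07 in WT (SD, n = 3 each). The log2 difference was 0.96 ± 0.34 (SE), a 1.95-fold higher level with a 95% interval of 1.16 to 3.29-fold, and it did not pass (limma adjusted p = 0.134). Its call turned on which arrays were used and how they were weighted. It passed with array weights (1.18, limma adjusted p = 0.0455) and without knockout replicate 2 (1.28, limma adjusted p = 0.048), while without knockout replicate 1 the difference was 0.50 (limma adjusted p = 0.21). The array weights were 1.12, 0.584 and 0.548 for knockout replicates 1 to 3. Both settings that passed therefore gave knockout replicate 1 more pull on the knockout mean.

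Sohlh1, the partner of Sohlh2, was dim on every array. Its probe set (1460015_at) read 15.9, 13.8 and 13.7 in knockout, against 11.2, 12.4 and 11.1 in WT. All 3 knockout arrays lay above all 3 WT arrays, as for 12.3% of tested genes, by a mean log2 difference of 0.32. All 6 values were below the testing level, where such small steps carry little meaning. With every probe set tested regardless of level, Sohlh1 did not pass (limma adjusted p = 0.273).

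Figla was well above the testing level. Its probe set (1450369_at) read 646, 490 and 736 in knockout, against 503, 718 and 369 in WT. The lowest and the second highest of the 6 values were both WT arrays, so the groups overlapped throughout. The mean log2 level was 9.26 ± 0.30 in knockout and 8.997 ± 0.48 in WT (SD, n = 3 each), and the difference of 0.27 ± 0.24 (SE) did not pass (limma adjusted p = 0.582). Its 95% interval of 0.833 to 1.74-fold covers no change, a small decrease and a moderate increase.

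The homeobox gene Nobox was at the edge of measurement. Its probe set (1425759_at) read 27.9, 13.7 and 34.9 in knockout, against 14.8, 15.99 and 7.81 in WT. Knockout replicates 1 and 3 were the only arrays at or above the testing level, and knockout replicate 2 lay below 2 of the WT arrays. The mean log2 difference was 0.95, with SDs of 0.71 in knockout and 0.57 in WT (n = 3 each). With every probe set tested regardless of level it did not pass (limma adjusted p = 0.152).

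The LIM homeobox gene Lhx8 was low but above the testing level on all arrays. Its probe set (1427300_at) read 30.65, 38.3 and 36.2 in knockout, against 36.4, 44.3 and 38.7 in WT. Knockout replicate 1 was lowest, and the other knockout arrays lay among the WT values or just below them. The mean log2 level was 5.12 ± 0.17 in knockout and 5.31 ± 0.14 in WT (SD, n = 3 each). The difference of -0.18 ± 0.18 (SE) did not pass (limma adjusted p = 0.62), and its 95% interval was 0.667 to 1.16-fold.

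Taf4b was measured by 2 probe sets above the testing level, both drawn from the same sequence record, and by another near the floor. The brightest (1435303_at) read 1747, 1404 and 1647 in knockout, against 1566, 1897 and 1464 in WT. The groups covered nearly the same range. The log2 difference was -0.04 ± 0.13 (SE, 3 arrays a group; limma adjusted p = 0.915), with a 95% interval of 0.796 to 1.20-fold, the narrowest of the 4 tested members.

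The other tested Taf4b probe set (1435302_at) read 567, 385 and 399 in knockout, against 412, 543 and 407 in WT. Knockout replicate 1 and WT replicate 2 were the high arrays in their groups on both probe sets. Its difference was -0.02 ± 0.19 (SE, 3 arrays a group; limma adjusted p = 0.968). The remaining probe set (1431193_at) read 4.52 to 8.39 in knockout and 7.53 to 9.29 in WT and was not tested.

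**Figure D3:**
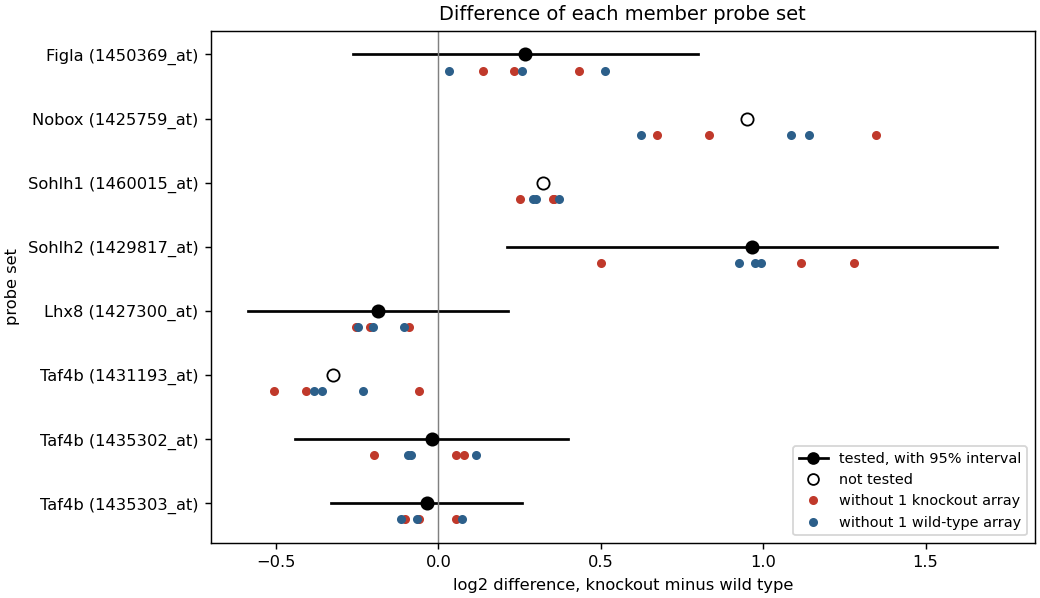
Log2 difference, knockout minus wild type (x axis), of each member probe set (y axis). Black points carry 95% limma intervals, open points were not tested, and small points are the differences with 1 knockout array (red) or 1 wild-type array (blue) left out. The Sohlh2 interval lies above 0, its difference is 0.50 without knockout replicate 1, and the Figla, Lhx8 and Taf4b intervals span 0.

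Ovary RNA was measured in bulk, so a change in the number of germ cells and a change in RNA per cell cannot be told apart. The 4 germ cell markers Ddx4, Dazl, Mael and Sycp3, all well above the testing level, had summed intensities of 8479 to 11780 in knockout and of 7943 to 9064 in WT. The ranges overlapped, knockout replicate 1 had the highest sum, and through their brightest probe sets 0 of the 4 passed in limma. Of the 4, 2 had an unadjusted p under 0.05, against 17.4% of all tested genes, and their median log2 difference was 0.31. Dazl has a second, dimmer probe set (1449502_at), which read 374, 133 and 243 in knockout, against 92.7, 118 and 68.7 in WT. Its groups did not overlap, and it rose 2.53-fold (1.34 ± 0.34, SE, 3 arrays a group; limma adjusted p = 0.0456), while the brightest differed by 0.48 (limma adjusted p = 0.183). Relative to the mean log2 level of these markers, which was 0.28 higher in knockout, Sohlh2 differed by 0.69 (limma adjusted p = 0.128), Lhx8 by -0.46 (limma adjusted p = 0.261) and Taf4b by -0.31 (limma adjusted p = 0.291). On that scale Figla differed by -0.01 (limma adjusted p = 0.985), and the untested Nobox and Sohlh1 by 0.67 and 0.04. The scaling shifted every probe set, so these adjusted p-values are not comparable with those of the main fit. The part of germ cell content in the member values was not tested further.

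Over the 6 arrays, the member probe sets did not share 1 order. Knockout replicate 1 gave the highest value for 3 of the 8, WT replicate 2 for 3 and knockout replicate 3 for 2. As a description over 6 arrays that include the group difference, Sohlh1 and Sohlh2 had a Pearson r of 0.892, Figla and Nobox 0.862, and Sohlh2 and Lhx8 -0.828. All Sohlh1 values and most Nobox values were below the testing level. Knockout replicate 1 was the highest array for Sohlh1 and Sohlh2 and the lowest for Lhx8, so those r values lean on that array. Among 4306 tested genes with an SD of at least 0.25 log2 units over the arrays, those most like Sohlh2 were Fbxo6, Ckb and Mettl24 (r of 0.997, 0.996 and 0.993). Those most like Figla were H2-K1, Dnajb11 and Rel (0.976, 0.974 and 0.970), those most like Lhx8 were Tmem68, Methig1 and Smg1 (0.960, 0.960 and 0.958), and those most like Taf4b were Bcl10, Lyrm1 and Ppp1r12b (0.988, 0.972 and 0.966). The group difference is part of each r, and with 6 arrays and 4306 candidates the highest r says little about any 1 gene.

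Genes known or proposed to act downstream of these factors were mostly below the testing level at E15.5. The list is not confined to genes made only in oocytes. Of 32 listed genes 28 were on the array and 12 were tested. The 16 untested ones read 2.10 to 29.3 on all arrays through their brightest probe sets. The zona pellucida genes Zp1, Zp2 and Zp3, the classical targets of FIGLA, read 2.65 to 5.23 in knockout and 2.40 to 4.24 in WT. Bmp15, a growth factor of oocytes, read 7.03, 15.2 and 10.3 in knockout, against 6.06, 4.41 and 4.99 in WT, and Kit, a receptor whose gene SOHLH proteins regulate, read 7.43 to 23.15 in knockout and 8.22 to 10.7 in WT. These 5 genes were named after their values were seen.

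Of the 12 tested genes 2 rose, 1 fell and 9 did not pass. Among all tested genes 1.28% rose and 2.27% fell. For 4 of the 12 (Dppa3, Padi6, Gdf9 and Rspo2) at most 1 array of one group reached the testing level, so these genes were tested mainly through the arrays of the other group. Dppa3, a maternal factor that protects methylation in the egg, read 1182, 197 and 76.8 in knockout, against 12.2, 12.1 and 18.8 in WT, and rose by 4.22 ± 0.76 log2 units (SE, 3 arrays a group; limma adjusted p = 0.00817). The knockout arrays spread widely, and 2 of the 3 WT arrays were below the testing level, so the size depends on values near the floor. Ooep, a component of the subcortical maternal complex, read 118, 58.0 and 58.8 in knockout, against 35.2, 27.4 and 26.6 in WT, and rose 2.51-fold (1.32 ± 0.28, limma adjusted p = 0.0189). Knockout replicate 1 was again the highest array for both genes, as it was for Sohlh2. Without knockout replicate 1 Dppa3 and Ooep still passed, at 3.13 (limma adjusted p = 0.00208) and 0.99 (0.0256). The Ooep call ended without WT replicate 2 (limma adjusted p = 0.0692) or WT replicate 3 (0.0691), and that of Dppa3 with robust eBayes (0.0625).

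Jag1, a Notch ligand made by oocytes and other ovarian cells, was the gene that fell. It read 1408, 1563 and 1334 in knockout, against 2021, 1956 and 2113 in WT. Every knockout array lay below every WT array, as for 11.4% of tested genes. The difference was -0.50 ± 0.10 (SE, 3 arrays a group; limma adjusted p = 0.0175). Jag1 no longer passed when knockout replicate 1 (limma adjusted p = 0.0539) or any WT replicate (0.0675 to 0.096) was left out. The endothelium and stroma markers, other cells in which Jag1 can be made, had median differences of -0.14 and -0.24. Endothelium markers summed to 1428 to 1782 in knockout and 1784 to 2064 in WT, and stroma markers to 35450 to 37750 and 40390 to 44450. Of the tested markers 2 of 6 and 0 of 10 fell, against 2.27% of all tested genes. Their part in the Jag1 value was not tested.

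**Figure D4:**
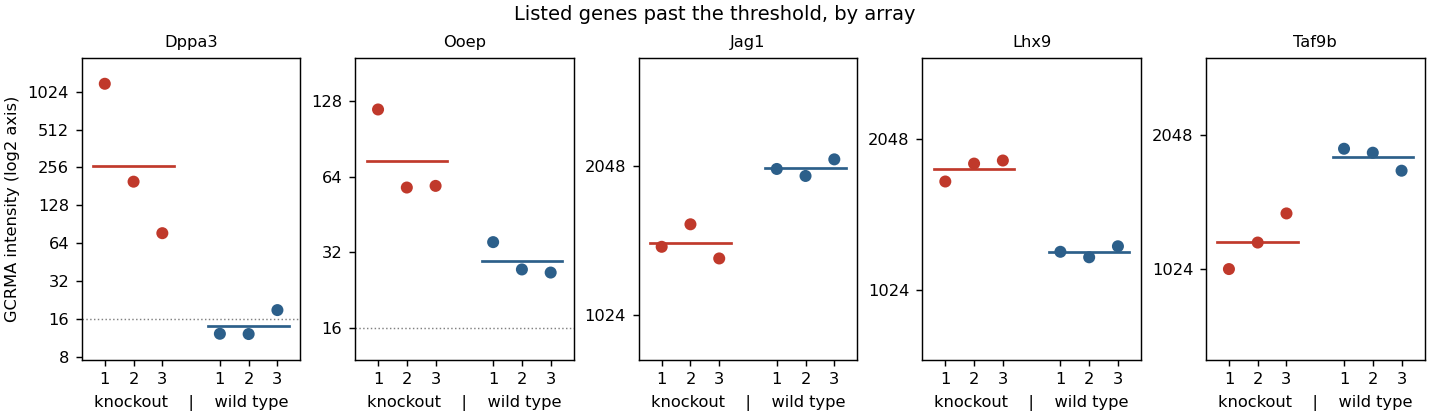
GCRMA intensity (y axis, log2 scale) on knockout replicates 1 to 3 (red) and wild-type replicates 1 to 3 (blue) of the 5 listed genes that passed the threshold. Lines are geometric means and the dotted line is the testing level of 16. Groups do not overlap in any panel. Among all tested genes, knockout lay wholly above wild type for 12.3% and wholly below for 11.4%. Knockout replicate 1 is highest for Dppa3 and Ooep and lowest for Lhx9 and Taf9b among knockout arrays.

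The proteins that pair with these factors showed no call. Of 22 listed genes of E proteins, inhibitors of bHLH proteins, LIM-binding proteins, other partners and further factors of the oocyte set, 20 were tested. In limma 0 rose and 0 fell, against 1.28% and 2.27% of all tested genes. An unadjusted p under 0.05 was found for 2 of the 20, against 17.4% of all tested genes. The median difference was -0.01. Tcf4, an E protein, read 4244, 5083 and 4610 in knockout, against 5873, 5227 and 5695 in WT, a difference of -0.27 ± 0.09 (SE, 3 arrays a group; limma adjusted p = 0.114). Id1 and Id3, inhibitors of bHLH pairing, differed by 0.81 ± 0.32 (0.177) and 0.33 ± 0.15 (0.253). Tcf12, another E protein, differed by 0.04 through its brightest probe set, while a dimmer one (1439209_at) read 36.8, 46.3 and 57.15 in knockout, against 91.6, 117 and 106 in WT, and fell by 1.18 log2 units (limma adjusted p = 0.00676). The remaining tested probe sets (1421908_a_at, 1439619_at and 1446294_at) differed by 0.13, -0.46 and -0.35 and did not pass. Its 5 tested probe sets therefore disagree. Tcf12 was named after its values were seen.

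Among the other subunits and relatives of TFIID, the complex that holds TAF4B, 16 of 17 listed genes were tested. Of these 1 fell, 0 rose and 15 did not pass, while 2.27% of all tested genes fell and 1.28% rose. Taf9b, a TFIID subunit closely related to TAF9, read 1023, 1174 and 1365 in knockout, against 1909, 1870 and 1703 in WT. The groups did not overlap, as for 11.4% of tested genes in that direction. The level fell by 0.63 ± 0.13 log2 units (SE, 3 arrays a group; limma adjusted p = 0.015). Taf1, the largest subunit, differed by -0.37 ± 0.11 (limma adjusted p = 0.0694) and Taf10 by 0.33 ± 0.12 (0.16). The median of the list was 0.02, the same as for all tested genes. The Taf9b call ended without WT replicate 1 (limma adjusted p = 0.0772) or WT replicate 2 (0.0734). Without knockout replicate 1, the array with the lowest Xist values, Taf9b differed by -0.53 (limma adjusted p = 0.0473). What the Xist levels contribute to the Taf9b and Taf1 values was not tested.

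In the LIM homeobox family, 4 of 11 relatives of Lhx8 were tested, and 1 rose, against 1.28% of all tested genes. Lhx9, a factor of the early gonad and its somatic cells, read 1686, 1831 and 1857 in knockout, against 1221, 1191 and 1253 in WT, and rose 1.47-fold (0.55 ± 0.10, SE, 3 arrays a group; limma adjusted p = 0.00916). Of its 3 other tested probe sets 0 passed, with differences of 0.64, 0.51 and -0.05. Lhx1 (0.41 ± 0.19, limma adjusted p = 0.255) and Isl1 (0.59 ± 0.32, limma adjusted p = 0.336) did not pass, and the median of the 4 was 0.48. The Lhx9 call ended without WT replicate 2 (limma adjusted p = 0.0587). Without knockout replicate 1 Lhx9 differed by 0.59 (limma adjusted p = 0.0186). Pregranulosa markers, somatic genes of the same ovary, summed to 20970 to 22330 in knockout and 19790 to 20580 in WT, with 0 of 12 past the threshold, and their part in the Lhx9 value was not tested.

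Genes listed as male germ cell genes, known or proposed to be held down by oocyte factors or driven by SOHLH proteins in the testis, showed no call. The list is not confined to male germ cells. In these WT ovaries Sycp2 read 2258 to 3085 and Piwil2 read 1656 to 2338. The list therefore does not measure male expression alone. Of 16 listed names 9 were tested, and 0 rose and 0 fell in limma, against 1.28% and 2.27% of all tested genes. An unadjusted p under 0.05 was found for 3 of the 9, against 17.4% of all tested genes. Tdrd9, a helicase of the piRNA pathway, read 34.4, 23.6 and 35.0 in knockout, against 17.9, 10.8 and 19.9 in WT. Its groups did not overlap, as for 12.3% of tested genes in that direction. The difference of 0.96 ± 0.26 (SE, 3 arrays a group) did not pass (limma adjusted p = 0.0598), although it did under 6 other settings. Sycp2, a protein of the meiotic chromosome axis, differed by -0.41 ± 0.12 (limma adjusted p = 0.0811), and Piwil2, a PIWI protein, by 0.51 ± 0.18 (0.136).

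**Figure D5:**
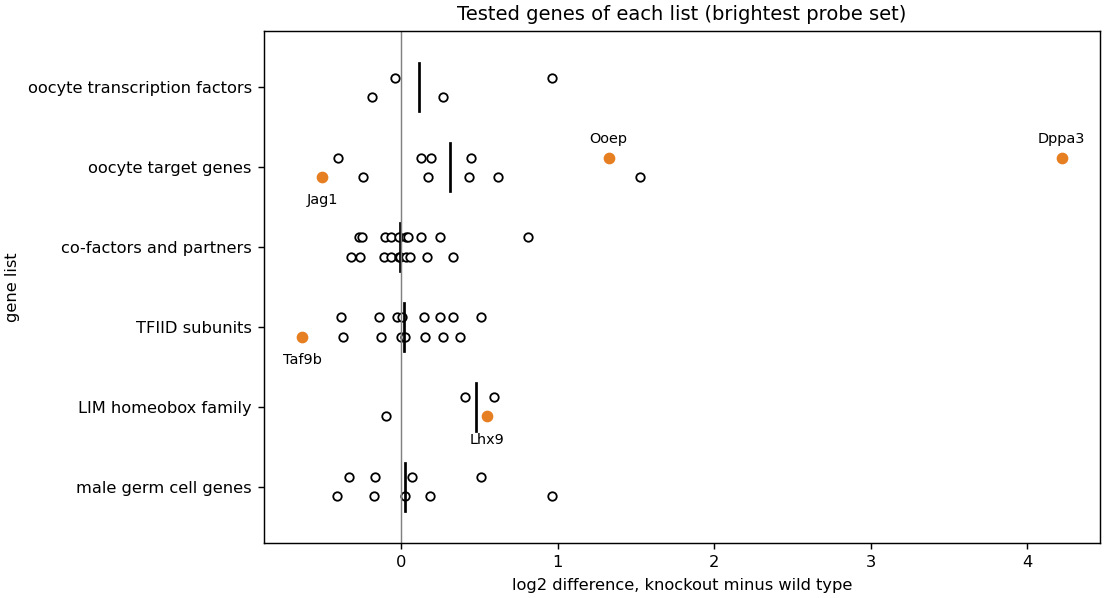
Log2 difference, knockout minus wild type (x axis), of every tested gene of the 6 members and of 5 related lists (y axis), through the brightest probe set. Filled points passed at a limma adjusted p of 0.05, open points did not, and the vertical bars are list medians. Dppa3 lies far to the right at 4.22, and the 4 tested members include no filled point.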

How the data were processed

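Intensities per probe set were measured on 6 arrays, 3 of Dmrt1 knockout and 3 of wild-type E15.5 ovaries. The authors made the deposited intensity values with GCRMA on a linear scale, per the submitters' processing notes, without a stated version. The array design limits precision through the number of arrays, and the values carry no detection calls.

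The intensities were taken to log2 and tested with limma (version 3.58.1, R 4.3.3) using genotype as the only term (moderated by eBayes with trend, 2-sided, Benjamini-Hochberg over the 22040 probe sets that reached log2 of 4 on at least 3 arrays). The 64 control probe sets were left out. A gene was represented by its brightest probe set. Symbols came from the platform annotation and a RefSeq gene table of GRCm38.p6. Of all probe sets, 34958 named 1 gene, 932 several and 9211 none, and 34754 were found in that table. Named genes are the members, listed genes past the threshold, up to 3 per list with the smallest p, and the 3 most correlated per tested member. The members and lists were chosen with earlier results of these data known. In a simulation of 22040 probe sets with the spread of the knockout and wild-type arrays, 27 of 50 genes changed by 1 log2 unit and 6 of 50 changed by 0.5 were recovered. The labels state no pairing, same-numbered arrays showed none, and 0 pairs of arrays were identical.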

Additional observations from a re-analysis of the deposited data

How the results depend on the processing

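Across the alternatives, 0 members fell, and 1 rose in the fit with array weights and without knockout replicate 2, in each case Sohlh2 (differences of 1.18 and 1.28, limma adjusted p = 0.0455 and 0.048). Leaving out each array in turn gave 0 to 1 member that rose and differences of 0.50 to 1.28 for Sohlh2, 0.03 to 0.51 for Figla, -0.25 to -0.09 for Lhx8 and -0.11 to 0.073 for the brightest Taf4b probe set. The other tested Taf4b probe set ranged from -0.20 to 0.11. Median centring, which moved the median of all genes to 0.16 from 0.02, turned both Taf4b probe sets to 0.10 and 0.12, close to that shift, and array weights turned the second to 0.054. Scaling to the germ cell markers, a shift of 0.28, turned Figla to -0.0080. The untested Sohlh1 moved to 0.44 with quantile normalization, 0.46 with median centring, 0.14 on log2 of the value plus 16 and 0.045 relative to the germ cell markers. The causes were not tested. Under the stricter filter (log2 of 6) only Figla and Taf4b were tested.

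For the lists, leaving out each array in turn was planned, and the other settings were added after the data were seen. Without a filter, 4 of the genes known or proposed to act downstream rose, with Rfpl4 and Bmp15 added. Both were below the testing level on every array, and Rfpl4 read 2.73 to 3.46 in knockout and 2.10 to 2.37 in WT. The count that rose was 1 under the stricter filter, where Ooep was no longer tested, and 1 with robust eBayes. In the same list the count that fell was 0 without the trend, with the replicate block and with median centring. Leaving out arrays gave 1 to 3 that rose and 0 to 1 that fell. Among TFIID genes 1 rose with median centring (Taf10), 0 fell with the replicate block, and leaving out arrays gave 0 to 1 in each direction. In the LIM homeobox list 0 rose with the replicate block and 0 to 1 on leaving out arrays. Among partners 1 fell (Tcf12) once probe sets ending in _s_at, _x_at or _a_at were left out, and 0 to 1 rose and fell on leaving out arrays. Among male germ cell genes 1 rose (Tdrd9) without a filter, with the replicate block, with quantile normalization, with median centring and once probe sets ending in _s_at, _x_at or _a_at were left out, and 0 to 1 rose and fell on leaving out arrays.

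With the replicate number as a block the members differed by the same amounts, and Sohlh2 again did not pass (limma adjusted p = 0.128), while over all genes 83 rose and 137 fell, against 152 and 270. Same-numbered arrays had correlations of -0.165, -0.247 and -0.168 in their deviations from the group means, so the numbers showed no pairing. Knockout replicates 1, 2 and 3 had correlations of 0.328, 0.336 and 0.238 with WT replicates 2, 3 and 1. All other pairs were negative. The labels state no pairing, and a block by these matches was not tested. Over all genes 380 rose without a filter, 79 rose and 169 fell under the stricter filter, 506 rose and 128 fell with median centring, and 235 rose with array weights. Leaving out arrays gave 57 to 228 that rose and 100 to 327 that fell.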
